A study of Mus musculus with 5 samples.

Results

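Collagens, laminins, the integrins that bind them and the adaptors that tie integrins to actin were examined in ribosome-bound RNA of central amygdala (CeA) *Drd2* neurons. Members were chosen by name, with earlier results of these data known. They were every gene of the table named as a collagen chain, a laminin subunit or an Itga or Itgb gene. The adaptors *Parva*, *Parvb*, *Parvg*, *Lims1*, *Tln1*, *Tln2* and *Vcl* were included with them. The rule found 70 of 15093 genes, made up of 32 collagen chains, 9 laminin subunits, 22 Itga or Itgb names and 7 adaptors. Of the 22 names, 19 are integrin subunits, while *Itgb1bp1*, *Itgb3bp* and *Itgbl1* carry an integrin name without being subunits. *Ilk*, which the rule also lists, was not analysed here, and *Col4a3bp*, a ceramide transfer protein, was left out because its name goes on past the pattern of a collagen chain.

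Collagens and laminins are secreted chains that join into triple helices and cross-shaped trimers. Type IV collagen and laminin form the sheet-like basement membrane around brain vessels, the pial surface and the choroid plexus. Integrins are heterodimers of an alpha and a beta subunit that bind these proteins outside the cell. Inside it, talin (*Tln1*, *Tln2*) binds and activates the beta subunit, vinculin (*Vcl*) strengthens the link to actin, and integrin-linked kinase forms a complex with PINCH (*Lims1*) and a parvin (*Parva*, *Parvb*, *Parvg*). Neurons use integrins and laminins at synapses, but most brain collagen comes from vascular, meningeal and choroid plexus cells.

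In translating ribosome affinity purification (TRAP), RNA is pulled down with a tagged ribosomal protein. The mice were adult Drd2-TRAP animals, made by crossing a BAC transgenic *Drd2*-Cre line with a Rosa26 floxed-stop line carrying EGFP fused to the ribosomal protein L10a, so that every cell in which the *Drd2* promoter had driven Cre carried the tag. Fear conditioned mice received tone and foot shock pairings, and 3 libraries were made from them (replicates 2, 3 and 4). The 2 control libraries (replicates 6 and 7) came from mice that the labels call home cage animals. The paper's methods also name the controls HC, while its results describe them as exposed to the tone without shock. Both groups shared the Drd2-TRAP genotype, the tissue and the collection time of 2 h after the session, which the labels call extinction and the paper conditioning, and each library was a pool of bilateral CeA punches from 3 animals.

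Each library is a separate pool, so the p-values given here measure the spread between pools. Values are in CPM, counts scaled to 1000000 of an effective library total, and are not divided by gene length. The libraries held 19605318 to 27937520 recovered reads, and 3 reads, the floor used below, stood for 0.1002 to 0.158 CPM, which covers counting error only. Across genes, values correlated at r = 0.979 to 0.986 among the fear conditioned libraries and at r = 0.787 between the 2 controls, which describes these libraries and is not a test. Markers of the labelled cells were present in every library, with *Drd2* at 128 to 555 and *Penk* at 6098 to 16076 CPM, and the summed level of 12 markers of striatal type projection neurons was 23082 to 25383 in the fear conditioned libraries, against 8717 and 14735 in the controls.

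No member passed the limma test, which asked for an adjusted p under 0.05 with a log2 fold change beyond 0.5 in either direction, and no gene of the table did (0% of 13560 tested). Fold changes here are fear conditioned minus control on the log2(value + 1) scale, which understates the change of low genes. All 15093 genes of the table exceeded 1 CPM in at least 1 library, so a gene absent from 1 group is there only through the other. Of the 70 members, 62 had a mean of at least 1 CPM and were tested, and the other 8 were left out as low. Among those tested, 12 had a fear conditioned mean under 1 CPM and 7 a control mean under 1 CPM. These met the filter only through their other group. At an unadjusted p under 0.05, limma placed 12 of the 62 lower in fear conditioned libraries (19.4%), against 7.32% of all genes tested, and 5 higher (8.06%), against 9.49%. The smallest adjusted p among the members was 0.197, which was also the smallest of all genes. In edgeR's quasi-likelihood test on recovered reads, 0 members and 0 genes passed, with 16 members and 2039 genes at an unadjusted p under 0.05. DESeq2 on the same reads passed 9 members lower, against 3.81% of all genes tested, and 1 higher, against 3.69%. In a bulk sample, fewer cells of a type and less RNA per cell cannot be told apart.

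In 19 of the 70 members every fear conditioned library lay below both controls (27.1%), against 14.8% of all genes in the table, and in 12 every one lay above both (17.1%), against 21.6%. After quantile normalization of all 13560 genes tested, 23 of the 62 tested members were lower (37.1%, against 17.6% of those genes). Another 5 were higher (8.06%, against 20.6%). As deposited, the same 62 had 19 lower (30.6%, against 16.1%) and 9 higher (14.5%, against 20.2%). Those that overlapped after quantile normalization were *Col6a4*, *Col11a2*, *Col23a1*, *Col27a1* and *Itga11* of the higher and *Col4a2*, *Col16a1*, *Itga2b*, *Itgb3bp* and *Parvb* of the lower members. The median log2 fold change of the tested members was -0.44, beside 0.08 for all genes tested. On the DESeq2 scale, which has no pseudocount, it was -0.90, beside -0.11 for all genes. The plot of the members without overlap gives 30 of these 31 by library.

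**Figure D1:**
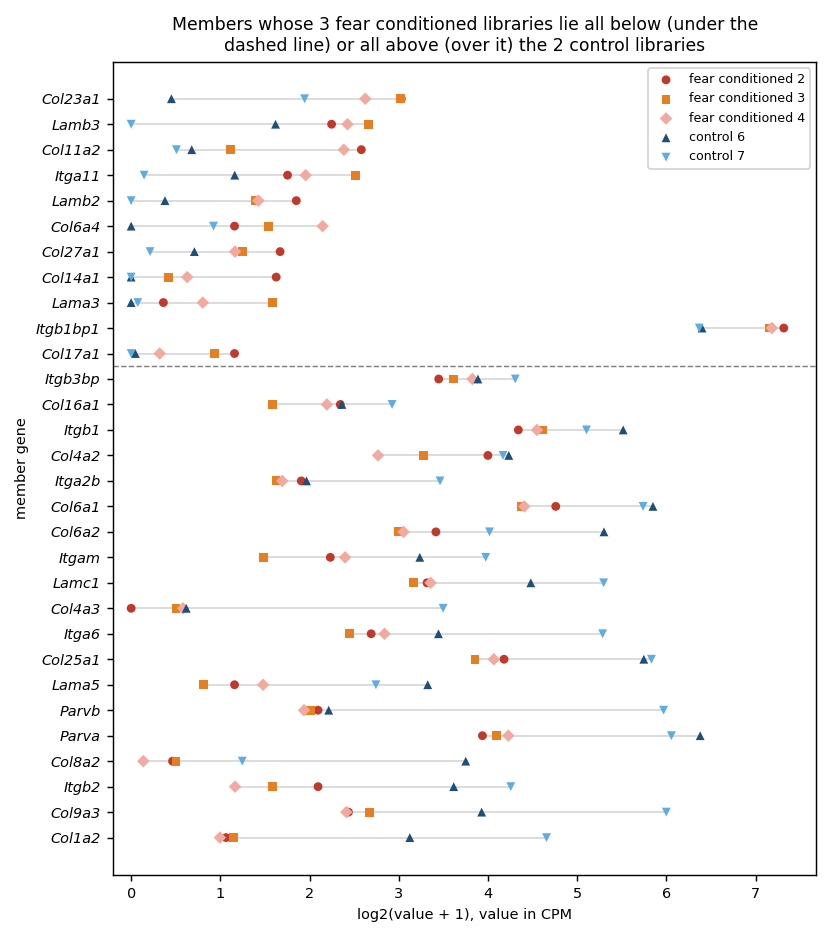
Level of 30 of the 31 members whose groups did not overlap, as log2(value + 1) of CPM (horizontal axis), with 1 row per gene and 1 marker per library. The 19 genes under the dashed line were lower in the 3 fear conditioned libraries and the 11 over it were higher, and for many of them the 2 control libraries lie far apart.

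The regions before the start sites of the lower collagens *Col25a1*, *Col1a2* and *Col6a1* are shown because these 3, with *Parva*, *Itgb2* and *Itgb1bp1*, had the smallest p-values among the members. The 250 bases before each start are printed from the RefSeq promoter table (GRCm38.p6), 5′ to 3′ on the strand of the gene, with matches to the motifs searched in capitals. The GC box (GGGCGG), the CCAAT box (CCAAT), the TATA box (TATAA), the CRE (TGACGTCA), the AP-1 site (TGAGTCA) and the E-box (CACGTG) were searched on both strands.
Col25a1, chr3:130180595-130180844, plus strand: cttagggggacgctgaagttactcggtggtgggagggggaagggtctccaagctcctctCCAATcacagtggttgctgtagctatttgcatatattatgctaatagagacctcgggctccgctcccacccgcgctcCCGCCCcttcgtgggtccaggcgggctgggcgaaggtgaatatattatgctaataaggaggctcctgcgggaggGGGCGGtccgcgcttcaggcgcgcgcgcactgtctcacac
Col1a2, chr6:4505368-4505617, plus strand: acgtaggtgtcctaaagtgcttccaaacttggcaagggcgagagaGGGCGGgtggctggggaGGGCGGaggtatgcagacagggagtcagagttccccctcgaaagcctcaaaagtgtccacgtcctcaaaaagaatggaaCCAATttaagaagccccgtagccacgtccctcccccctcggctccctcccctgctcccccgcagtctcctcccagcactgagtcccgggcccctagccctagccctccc
Col6a1, chr10:76726045-76726294, minus strand: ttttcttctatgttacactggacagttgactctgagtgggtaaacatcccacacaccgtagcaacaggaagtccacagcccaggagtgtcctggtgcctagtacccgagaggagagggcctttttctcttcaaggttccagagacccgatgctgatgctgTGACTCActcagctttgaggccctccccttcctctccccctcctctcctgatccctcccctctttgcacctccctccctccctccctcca

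*Col25a1* and *Col1a2* each held 2 GC boxes and 1 CCAAT box, and *Col6a1* held neither but had 1 AP-1 site. Among all 32851 windows of 250 bases, 32.7% held a GC box, 33.8% a CCAAT box, 22.8% a TATA box, 1.55% a CRE, 4.46% an AP-1 site and 6.02% an E-box. Windows were found for 53 of the 70 members (60 windows), of which 53.3% held a GC box, 28.3% a CCAAT box and 16.7% a TATA box. The median GC content was 60% in the member windows and 52.4% in all windows. The *Col25a1* window carries the 16 bases atatattatgctaata 2 times, and 1.98% of all windows hold a direct repeat of that length. A match is a description of the letters and not a site in use. No window was found for *Parva* or *Itgb2*, and that of *Itgb1bp1* runs into *Cpsf3*, so these are not printed.

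*Parva* (ENSMUSG00000030770), alpha-parvin, which the paper already reports as downregulated after conditioning in these libraries, had the smallest p of all members. Its level was 14.3, 16.1 and 17.7 CPM in fear conditioned replicates 2, 3 and 4, against 82.1 and 65.5 in control replicates 6 and 7, an order of libraries kept in every list below. The groups stood far apart, at 16.1 ± 1.70 (SD, n = 3) and 73.8 ± 11.8 (SD, n = 2), and the distance was larger than the spread within either group. The log2 fold change was -2.13 ± 0.33 (SE), with an adjusted p of 0.197 in limma and 4.24e-07 in DESeq2. Leaving out each library in turn kept it between -2.29 and -1.97. The locus overlaps *Parvaos*, a non-coding gene named as its opposite strand, and the sources used here do not give whether counting used the strand, so reads of the pair cannot be told apart.

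*Parvb*, beta-parvin, was also lower without overlap, with 1 control far from the other. It stood at 3.27, 3.04 and 2.83 in the fear conditioned libraries and at 3.64 and 61.6 in the controls, so that only control replicate 7 was high. Its log2 fold change of -2.08 (adjusted p = 0.387 in limma) was -0.20 without control replicate 7 and -3.95 without control replicate 6. DESeq2 passed it, at -3.49 with an adjusted p of 0.0261. *Parvg*, gamma-parvin and the neighbouring gene of *Parvb*, was low throughout, at 1.57, 1.87 and 1.34 in fear conditioned libraries and at 5.21 and 0 in the controls. The log2 ratio of *Parva* to *Parvb* was 2.13, 2.41 and 2.65 in the fear conditioned libraries, against 4.50 and 0.09 in the controls. The controls bracketed the fear conditioned libraries on both sides, and the difference was 0.10 (exact permutation test, two-sided, p = 0.9, adjusted p = 0.9 over 4 ratios), where the smallest p that 3 against 2 libraries can give is 0.1.

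The talins had the highest mean level per kb of the adaptors in the fear conditioned libraries, and their groups overlapped. *Tln2*, the form that predominates in brain, was at 90.1, 128 and 124 in fear conditioned libraries and at 130 and 97.0 in controls, and *Tln1* was at 45.0, 37.7 and 36.4 against 37.0 and 62.6. Per kb of gene length, their mean levels were 8.73 and 4.08 in the fear conditioned and 8.69 and 5.11 in the control libraries. In the control means *Parva*, *Parvb* and *Lims1* lay above *Tln1*, at 7.28, 7.21 and 5.18 CPM per kb, *Parvb* through control replicate 7 and *Lims1* through control replicate 6. The ranges of the groups overlapped for both genes, with log2 fold changes of 0.01 ± 0.27 (SE) and -0.28 ± 0.34 (SE), adjusted p of 0.993 and 0.697 in limma. The log2 ratio of *Tln1* to *Tln2* was -1.0, -1.77 and -1.76 in the fear conditioned libraries, against -1.81 and -0.63 in controls, and the difference of -0.29 had a permutation p of 0.7 (exact, two-sided, adjusted p = 0.9).

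*Lims1*, which encodes PINCH, and *Vcl*, vinculin, were steady among fear conditioned libraries and split between controls. *Lims1* was at 22.1, 15.9 and 22.3 in the fear conditioned libraries and at 49.7 and 3.90 in controls. *Vcl* was at 2.47, 2.29 and 2.23 against 5.31 and 0. For both, as for *Parvg*, control replicate 6 was the highest library and control replicate 7 the lowest, and the direction of the fold change depended on which control was kept.

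Collagen chains were lower in fear conditioned libraries when summed and, in most of the tested chains, one by one. The 32 chains summed to 124, 91.7 and 92.1 CPM in the fear conditioned group, and to 307 and 277 in the controls, a ratio of the control mean to the fear conditioned mean of 2.85. Of the 27 chains tested, 22 had a log2 fold change below 0, against 6231 of all 13560 genes tested, and the median was -0.84. Some lower chains met the filter only through the controls, such as *Col6a6*, with a fear conditioned mean of 0.0166 CPM. Some higher chains met it only through the fear conditioned libraries, such as *Col27a1*, with a control mean of 0.396 CPM. The counts in both directions and the median therefore rest in part on that filter. Limma placed 6 lower (22.2%, against 7.32% of all genes) and 1 higher (3.70%, against 9.49%) at an unadjusted p under 0.05. The chains without overlap numbered 9 lower (28.1%, against 14.8% of all genes) and 6 higher (18.8%, against 21.6%).

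*Col25a1* (ENSMUSG00000058897) encodes a transmembrane collagen made by neurons, first known as a component of amyloid plaques. It was at 17.1, 13.5 and 15.7 in the fear conditioned libraries and at 52.7 and 55.9 in controls. All of the fear conditioned libraries lay well below both controls, and both groups were tight, at 15.4 ± 1.85 (SD, n = 3) and 54.3 ± 2.32 (SD, n = 2). The log2 fold change was -1.76 ± 0.34 (SE), with an adjusted p of 0.197 in limma and 2.53e-04 in DESeq2, and it stayed between -1.83 and -1.67 with any 1 library left out.

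*Col6a1* (ENSMUSG00000001119) and *Col6a2*, 2 of the chains of microfibrillar type VI collagen, are neighbours on chromosome 10 and lay in the same direction. *Col6a1* was at 26.1, 19.8 and 20.2 in fear conditioned libraries and at 56.6 and 52.4 in controls, the highest collagen level per kb (8.03). *Col6a2* was at 9.67, 6.95 and 7.30 against 38.4 and 15.2. Both were lower in every fear conditioned library, with log2 fold changes of -1.28 ± 0.32 (SE) and -1.50 ± 0.56 (SE) and adjusted p of 0.200 and 0.268 in limma, and that of *Col6a2* was -0.86 without control replicate 6. DESeq2 passed *Col6a1* (adjusted p = 0.0115) and not *Col6a2* (adjusted p = 0.0727). The log2 ratio of the pair was 1.43, 1.51 and 1.47 in the fear conditioned libraries, against 0.56 and 1.79 in controls, and the difference of 0.30 had a permutation p of 0.7 (exact, two-sided, adjusted p = 0.9).

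The other members of this group showed how often a value came from 1 control. *Col6a6* had 0, 0 and 1 read in the fear conditioned libraries, 353 in control replicate 6 and none in control replicate 7. *Col6a3* was at 0.142, 0.208 and 0.248 against 6.75 and 0.053, and *Col8a1*, of a network collagen, at 1.19, 0.875 and 0.695 against 9.05 and 0.158. *Col8a2*, its partner chain, was at 0.379, 0.416 and 0.099 in fear conditioned libraries and at 12.5 and 1.37 in controls, the only one of the 4 with both controls above. Its log2 fold change was -2.13 ± 0.81 (SE), -3.38 without control replicate 7, with an adjusted p of 0.276 in limma and 0.0354 in DESeq2. *Col6a4* went the other way, at 1.23, 1.92 and 3.43 against 0 and 0.896.

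Among fibrillar collagens, *Col1a2* (ENSMUSG00000029661), a chain of type I collagen, was at 1.09, 1.21 and 0.993 in the fear conditioned libraries and at 7.71 and 24.2 in controls. Both controls were higher than all fear conditioned libraries although they differed from each other, and the log2 fold change was -2.82 ± 0.65 (SE), the lowest of the tested members, with an adjusted p of 0.197 in limma and 9.91e-04 in DESeq2. Without control replicate 7 it was -2.06. *Col3a1*, which codes for the chain of type III collagen, had 0, 30 and 15 reads in fear conditioned libraries and 0 in both controls. *Col5a1* and *Col5a2*, chains of type V collagen, were each at 0 in control replicate 6 and at 5.27 and 11.6 in control replicate 7, with fear conditioned values from 0.298 to 1.94. The cartilage type chain *Col11a2* was higher without overlap, at 4.98, 1.17 and 4.22 against 0.601 and 0.422, with a log2 fold change of 1.43 ± 0.65 (SE) and an adjusted p of 0.328 in limma. *Col27a1* was at 2.18, 1.37 and 1.24 against 0.634 and 0.158, with a log2 fold change of 0.90. After quantile normalization the groups of both overlapped, and the log2 fold changes were 0.52 for *Col11a2* and -0.14 for *Col27a1*.

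The basement membrane chains *Col4a1* and *Col4a2* start 21 bases apart on opposite strands of chromosome 8 (GRCm38.p6). *Col4a2* was at 15.0, 8.66 and 5.81 in fear conditioned libraries and at 17.8 and 17.0 in controls, and *Col4a1* at 7.16, 2.79 and 2.88 against 12.7 and 3.37. *Col4a2* lay below both controls in each fear conditioned library, while *Col4a1* overlapped with control replicate 7. Their log2 fold changes were -0.85 ± 0.55 (SE) and -0.65 ± 0.75 (SE), with adjusted p of 0.462 and 0.676 in limma. That of *Col4a1* was 0.17 without control replicate 6 and -1.48 without control replicate 7. The log2 ratio of the pair differed by 0.17 (exact permutation test, two-sided, p = 0.8, adjusted p = 0.9). *Col4a3*, a chain of specialised basement membranes, was at 0, 0.416 and 0.497 against 0.534 and 10.3, so only control replicate 7 was high. *Col18a1*, the source of endostatin, was at 11.02 in control replicate 6 and at or under 0.996 in every other library.

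*Col9a3* (ENSMUSG00000027570) codes for a chain of type IX collagen, which decorates fibrils. It was at 4.41, 5.37 and 4.32 in fear conditioned libraries and at 14.2 and 62.9 in controls. The controls were both higher but far apart, and the log2 fold change of -2.46 ± 0.71 (SE) was -1.42 without control replicate 7, with an adjusted p of 0.217 in limma and 0.00375 in DESeq2. The gene overlaps *Tcfl5*. Its partner chain *Col9a2* was at 4.74, 4.04 and 5.11 against 4.21 and 5.75, with overlapping groups, and *Col16a1* was at 4.08, 2.00 and 3.58 against 4.14 and 6.59. The related chains *Col12a1*, *Col19a1* and *Col20a1*, like the fibrillar chains *Col11a1* and *Col24a1*, were at 3.44 to 14.2 in control replicate 6, at 0 to 0.422 in control replicate 7 and at 0.298 to 3.03 in the fear conditioned libraries. *Col14a1* was seen in all 3 fear conditioned libraries, with 44, 8 and 11 reads, and in neither control. Against a floor of 3 reads in each control library it was at least 7.65-fold higher, or at least 3.40-fold without fear conditioned replicate 2. It exceeded 1 CPM in that replicate alone, so its place in the table rests on that library.

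Of the transmembrane collagens other than *Col25a1*, *Col23a1* was higher in the fear conditioned libraries, at 7.16, 7.08 and 5.16 against 0.367 and 2.85. Its log2 fold change was 1.69 ± 0.66 (SE), with an adjusted p of 0.282 in limma and 0.381 in DESeq2, and 0.94 without control replicate 6. *Col17a1*, a component of epithelial hemidesmosomes, had 26, 22 and 5 reads in fear conditioned libraries and 1 and 0 in controls. *Col13a1* was at 8.75 in control replicate 6, at 0 in control replicate 7 and at 0.427, 0.083 and 0.497 in the fear conditioned libraries.

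Laminin chains lay in both directions. The gamma chain of most laminins, *Lamc1*, and the vascular alpha chain *Lama5* were lower in fear conditioned libraries, while *Lama3*, *Lamb2* and *Lamb3* were higher at low levels. Of 8 chains tested, 3 were higher (37.5%, against 9.49% of all genes) and 2 lower (25%, against 7.32%) at an unadjusted p under 0.05, and the median log2 fold change was 0.75. Some higher chains met the filter only through the fear conditioned libraries, such as *Lamb2*, with a control mean of 0.150 CPM. The count of higher chains and the median therefore rest in part on that filter. The 9 chains summed to 36.3, 34.5 and 36.4 in fear conditioned libraries and to 58.7 and 49.99 in controls.

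**Figure D2:**
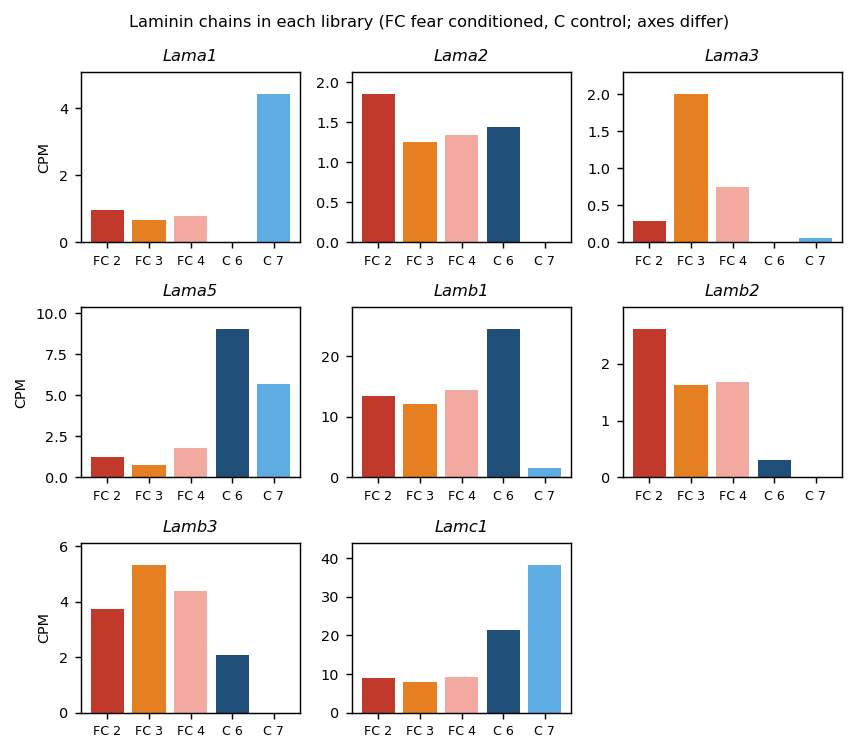
Level of 8 of the 9 laminin chains in CPM (vertical axis, scaled to each gene from 0) in fear conditioned libraries 2, 3 and 4 and control libraries 6 and 7. *Lama5* and *Lamc1* were higher in both controls, *Lama3*, *Lamb2* and *Lamb3* were higher in all fear conditioned libraries, and *Lama1*, *Lama2* and *Lamb1* had 1 control above and the other below some or all of them.

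*Lamc1* (ENSMUSG00000026478) was at 8.96, 7.95 and 9.24 in the fear conditioned libraries and at 21.3 and 38.3 in controls. Both controls were above all fear conditioned libraries, with a log2 fold change of -1.61 ± 0.48 (SE) and an adjusted p of 0.217 in limma and 0.0249 in DESeq2. *Lamb3* was at 3.75, 5.33 and 4.37 in fear conditioned libraries against 2.07 and 0, and *Lama3* had 6, 48 and 15 reads against 0 and 1. *Lamb2*, the beta chain of synaptic and vascular laminins, was at 2.61, 1.62 and 1.69 against 0.301 and 0. The log2 fold changes of *Lamb3* and *Lamb2* were 1.64 ± 0.67 (SE) and 1.37 ± 0.50 (SE), with adjusted p of 0.295 and 0.259 in limma, and that of *Lamb3* was 0.83 without control replicate 7. After quantile normalization *Lamb3* and *Lamb2* lay above both controls as well, with log2 fold changes of 1.25 and 0.55 (adjusted p = 0.262 and 0.513 in limma).

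*Lama5* (ENSMUSG00000015647) was at 1.23, 0.750 and 1.79 in fear conditioned libraries and at 9.02 and 5.70 in controls. The log2 fold change was -1.89 ± 0.56 (SE), with an adjusted p of 0.220 in limma and 0.1001 in DESeq2. *Lamb1*, the most common beta chain, was at 13.4, 12.2 and 14.4 against 24.4 and 1.53, so the controls lay on either side. *Lama2*, the chain that binds dystroglycan, was at 1.85, 1.25 and 1.34 against 1.44 and 0, and *Lama1* at 0.948, 0.666 and 0.794 against 0 and 4.43. The ratio of *Lamb1* to *Lamb2* could not be computed because *Lamb2* had no reads in control replicate 7.

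Integrin subunits were lower in fear conditioned libraries when summed, at 118, 144 and 148 CPM against 215 and 245, a ratio of control to fear conditioned means of 1.69. Of 17 tested subunits, 12 had a log2 fold change below 0, against 6231 of all 13560 genes tested, with a median of -0.62. Among these, *Itga4*, *Itga8* and *Itgae* met the filter only through control replicate 6, with fear conditioned means of 0.769, 0.325 and 0.360 CPM. *Itga11*, which was higher, met it only through the fear conditioned libraries, with a control mean of 0.671 CPM. The count and the median therefore rest in part on that filter. Limma placed 3 lower (17.6%, against 7.32% of all genes) and 0 higher at an unadjusted p under 0.05, namely *Itgb2*, *Itgam* and *Itga6*. The subunits without overlap were these 3, *Itgb1* and *Itga2b* as lower (26.3%, against 14.8% of all genes) and *Itga11* as higher (5.26%, against 21.6%).

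*Itgb2* (ENSMUSG00000000290) and *Itgam* encode the beta and alpha subunits of a leukocyte receptor that microglia carry. *Itgb2* was at 3.27, 2.00 and 1.24 in the fear conditioned libraries and at 11.3 and 18.1 in controls, and *Itgam* at 3.70, 1.79 and 4.27 against 8.42 and 14.7. Both controls were above all fear conditioned libraries for both genes, with log2 fold changes of -2.32 ± 0.60 (SE) and -1.57 ± 0.61 (SE) and adjusted p of 0.201 and 0.281 in limma, and DESeq2 passed *Itgb2* alone (adjusted p = 0.0204, against 0.189 for *Itgam*). The summed level of 10 microglia markers, a list that holds other genes of these cells, was 140, 77.1 and 138 in the fear conditioned libraries, against 162 and 132 in controls, so the groups overlapped, and none of these markers was at 0 in any library.

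*Itgb1*, the beta subunit shared by most laminin and collagen receptors, was the highest integrin subunit per kb (6.71). It was at 19.2, 23.4 and 22.4 in fear conditioned libraries and at 44.7 and 33.4 in controls, with no overlap and a log2 fold change of -0.81 ± 0.35 (SE, adjusted p = 0.311 in limma). *Itga6*, its partner in laminin receptors, was at 5.45, 4.46 and 6.16 against 9.88 and 38.0. The log2 fold change of *Itga6* was -1.71 ± 0.68 (SE, adjusted p = 0.290 in limma), and -0.79 without control replicate 7. *Itga3*, another partner in laminin receptors, was at 4.98, 5.71 and 6.41 in fear conditioned libraries and split between controls at 13.7 and 0.369. *Itga11*, a collagen receptor, was at 2.37, 4.71 and 2.88 against 1.24 and 0.105, with a log2 fold change of 1.42 ± 0.60 (SE, adjusted p = 0.305 in limma). It was 0.91 without control replicate 7 and 0.54 after quantile normalization, where the groups overlapped.

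Among receptors for fibronectin, vitronectin and other matrix ligands, *Itga2b* alone had all fear conditioned libraries below both controls, at 2.75, 2.08 and 2.23 against 2.90 and 10.02, with a log2 fold change of -0.97 ± 0.65 (SE, adjusted p = 0.476 in limma), or -0.22 without control replicate 7. The alpha subunit *Itgav* was at 18.5, 40.5 and 39.8 in fear conditioned libraries and at 27.4 and 22.1 in controls. Its beta partners *Itgb5* and *Itgb8* were at 22.7, 9.33 and 15.2 against 22.01 and 17.3, and at 15.2, 21.9 and 18.0 against 19.0 and 42.3. *Itga5* was at 5.55, 8.70 and 9.93 against 6.21 and 0, *Itga8* at 0.569, 0.208 and 0.199 against 15.5 and 0, and *Itga9* at 5.31, 14.6 and 13.5 against 5.11 and 43.9. For these last 3 genes the controls lay far from each other. The fear conditioned libraries were between them for *Itga8* and *Itga9*, while for *Itga5* replicates 3 and 4 were above both. The remaining alpha subunits *Itga4*, *Itga7*, *Itgae* and *Itgal* were at 1.77 to 13.2 in control replicate 6, at 0 to 0.053 in control replicate 7 and at 0.149 to 1.79 in the fear conditioned libraries. *Itgb4*, the hemidesmosome subunit, was at 3.98, 1.37 and 3.18 against 3.34 and 4.54, and *Itgb7* was at 1.043, 0.541 and 0.248 against 0.067 and 0.475.

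*Itgb1bp1* (ENSMUSG00000062352), the gene of the integrin binding protein ICAP-1, was the most abundant member (36.8 CPM per kb, above 86.8% of genes). It was at 158, 142 and 144 in fear conditioned libraries and at 83.4 and 81.6 in controls. All of the fear conditioned libraries were above both controls, at 148 ± 8.85 (SD, n = 3) against 82.5 ± 1.26 (SD, n = 2), and the log2 fold change was 0.83 ± 0.21 (SE), with an adjusted p of 0.200 in limma and 0.0190 in DESeq2. It was the only member that DESeq2 passed as higher, and it stayed between 0.79 and 0.87 with any 1 library left out. The gene overlaps *Cpsf3* and *Asap2*. *Itgb3bp*, which encodes a centromere protein, was at 9.91, 11.2 and 13.2 against 13.8 and 18.8, and *Itgbl1* at 6.54, 14.5 and 11.1 against 17.0 and 0.

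The control libraries differed from each other over the members more than the fear conditioned libraries did. In 27 of 70 members (38.6%) the 2 controls were more than 4-fold apart on the value + 1 scale, against 24.4% of all genes, while the fear conditioned libraries were so for 0 members and 0.232% of all genes. Control replicate 7 was at 0 for 23 members (32.9%, against 17.8% of all genes) and control replicate 6 for 7 (10%, against 6.47%). Control replicate 6 was above all fear conditioned libraries for 44 of the 70 members, and for 6144 of all 15093 genes. Control replicate 7 was above them for 27 members and 5310 genes. In 23 members (32.9%, against 32.3% of all genes), 1 control was the highest of the 5 libraries and the other the lowest.

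**Figure D3:**
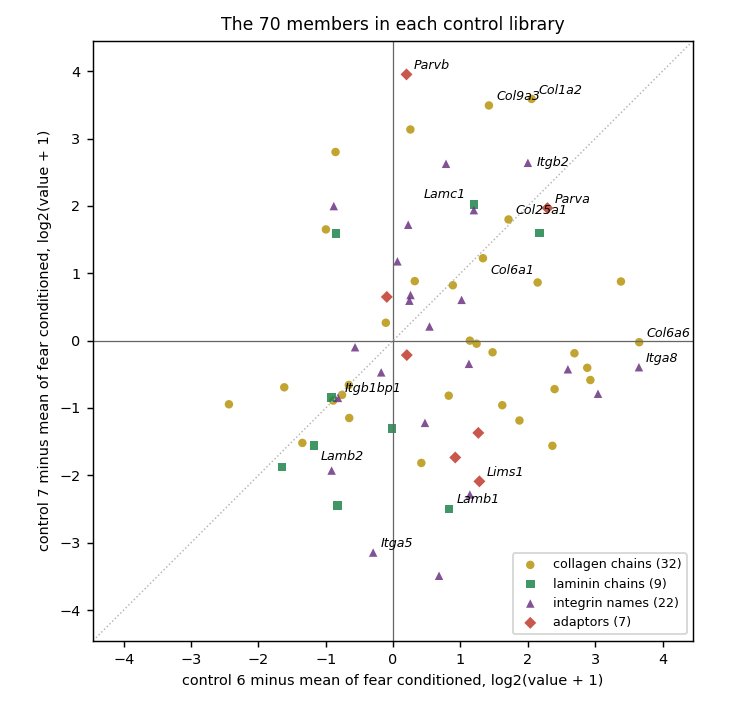
Each member in control replicate 6 (horizontal axis) and control replicate 7 (vertical axis), as the difference from the mean of the 3 fear conditioned libraries on the log2(value + 1) scale. Points in the upper right were higher in both controls, such as *Parva* and *Col25a1*, points in the lower left were lower in both, such as *Itgb1bp1* and *Lamb2*, and points in the other quadrants, such as *Lims1* and *Itga8*, were higher in 1 control only.

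The count of members that passed depended on which controls were kept. Without control replicate 6, limma passed 38 of 51 members tested and 8025 of 13268 genes (60.5%). Without control replicate 7, it passed 30 of 58 members and 3722 of 13550 genes (27.5%). In these fits the lone control is assumed to vary like the fear conditioned libraries.

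The rest of the matrix and adhesion machinery was read from lists of genes that are not members. Over all genes tested, 9.49% were higher and 7.32% lower at an unadjusted p under 0.05, with a median log2 fold change of 0.08. Of 18 other matrix proteins tested, limma placed 5 lower (27.8%) and 0 higher at that p, with a median log2 fold change of -0.75. The lower ones were *Sparc*, a collagen binding protein, *Vtn*, vitronectin, the proteoglycans *Bcan* and *Ncan* of the perineuronal matrix, and *Smoc2*. *Bcan* was at 60.6, 46.7 and 71.5 in fear conditioned libraries and at 162 and 152 in controls, with a log2 fold change of -1.40 ± 0.27 (SE, adjusted p = 0.197 in limma). *Smoc2* was at 1.56, 3.37 and 0.149 against 8.65 and 7.22.

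Of 20 collagen-modifying enzymes tested, 1 was higher (5%) and 2 lower (10%), shares near those of all genes, with a median of -0.27. *Bmp1*, a protease that cleaves procollagen, was at 15.9, 11.8 and 14.8 in the fear conditioned libraries and at 3.97 and 1.05 in controls, with a log2 fold change of 2.24 ± 0.61 (SE, adjusted p = 0.208 in limma). The prolyl hydroxylase gene *Lepre1* was at 5.50, 7.25 and 5.91 against 15.8 and 27.2, and *Glt25d2* at 1.75, 1.33 and 2.14 against 5.84 and 7.91. Among matrix proteases and their inhibitors, 2 were higher (12.5%) and 1 lower (6.25%) of 16, again near the shares of all genes, with a median of -0.25. These were *Mmp16* (6.54, 12.7 and 10.2 against 1.035 and 2.43), *Reck* (5.26, 1.499 and 3.28 against 0.267 and 0) and *Adamts4* (4.03, 5.37 and 7.85 against 14.3 and 42.7).

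Of 33 other focal adhesion genes tested, 5 were higher (15.2%, against 9.49% of all genes) and 3 lower (9.09%, against 7.32%), and the median of 0.08 was that of all genes. *Fblim1*, a filamin binding protein, had the smallest p among these, at 7.06, 12.5 and 10.7 in the fear conditioned libraries and at 0 and 0.053 in controls. *Actn2*, an actin crosslinker of dendritic spines, was at 61.7, 85.4 and 82.1 against 25.1 and 19.0, with a log2 fold change of 1.75 ± 0.31 (SE, adjusted p = 0.197 in limma). The filamin gene *Flna* was at 9.91, 6.79 and 10.3 against 27.5 and 62.8, and *Ppfia1* at 12.5, 24.8 and 17.1 against 42.6 and 66.5. Of 12 matrix receptors that are not integrins, *Bcam*, a laminin receptor, was higher (4.79, 1.54 and 2.88 against 0.1002 and 0.580) at an unadjusted p under 0.05, and *Sdc2* and *Sdc4* were lower, with *Sdc2* at 47.4, 59.3 and 69.1 against 92.8 and 105 and *Sdc4* at 17.7, 7.75 and 22.5 against 29.8 and 71.6. The median of these receptors was -0.06.

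Among markers of cells that make these matrix proteins, the choroid plexus list lay most clearly in the same direction as the collagens. All 12 choroid plexus markers were in the table and summed to 113, 186 and 118 CPM in the fear conditioned group, and to 2270 and 1956 in controls, and 8 of them were lower without overlap (66.7%, against 14.8% of all genes). *Ttr*, the leading marker, was at 0.522, 22.1 and 0.348 against 913 and 1320. *Kcnj13*, *Folr1*, *Aqp1*, *Slc4a5* and *F5* were at 0 in at least 1 fear conditioned library, and *Otx2* and *Aqp1* in at least 1 control. Their part in the lower collagens and laminins was not tested.

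Vascular and meningeal markers gave smaller distances. The 12 endothelial markers summed to 75.5, 26.9 and 65.3 in fear conditioned libraries and to 125 and 276 in controls. Without overlap, 3 were lower and 3 higher (25% each), against 14.8% lower and 21.6% higher over all genes in the table. *Tek*, *Emcn*, *Tie1* and *Ocln* were at 0 in at least 1 control. The 10 mural markers summed to 63.1, 30.0 and 54.2 against 101 and 85.3, with 3 lower and 3 higher without overlap (30% each). *Rgs5* was at 11.7, 5.83 and 9.93 against 48.3 and 36.2, and without it the mural sums overlapped, at 51.4, 24.2 and 44.2 against 53.2 and 49.1. Mural markers at 0 were *Kcnj8* and *Des* in a fear conditioned library and *Kcnj8*, *Abcc9*, *Myh11* and *Tagln* in a control. The 6 fibroblast and meningeal markers in the table summed to 24.2, 23.4 and 16.5 against 100.2 and 56.8. Without overlap, 2 of them were lower and 2 higher (33.3% each), and *Slc6a13* and *Fmod* were at 0 in a control. Their part in the lower members was not tested either.

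The sums of astrocyte and oligodendrocyte markers were higher in controls as well, and their part was not tested. The 10 astrocyte markers summed to 751, 633 and 847 in fear conditioned libraries and to 1714 and 2498 in controls, and the 10 oligodendrocyte markers to 1918, 1329 and 2827 against 2899 and 5541, with none at 0 in any library. Of these, 5 astrocyte (50%) and 4 oligodendrocyte markers (40%) were lower without overlap, against 14.8% of all genes in the table, and none was higher. The 10 markers of pallial glutamatergic neurons summed to 502, 624 and 359 against 819 and 610, an overlap between groups, with *Rspo2* at 0 in a control.

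**Figure D4:**
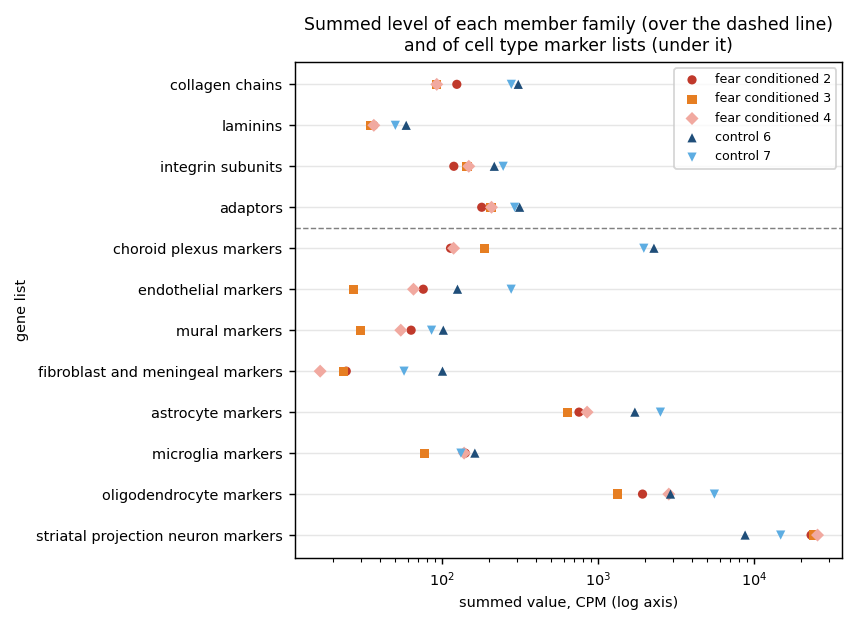
Summed level in CPM (horizontal log axis) of the 4 member families and of 8 cell type marker lists in each of the 5 libraries. The sums of all 4 families were lower in the 3 fear conditioned libraries than in both controls. Gene by gene, 5 of 8 tested laminin chains and 4 of 7 adaptors had log2 fold changes above 0. The choroid plexus markers differed by the widest margin, and the striatal projection neuron markers lay the other way.

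Most members were scarce in these libraries. The median member had a level of 0.506 CPM per kb, against 4.62 for all genes in the table, and 6 of 70 members were above that median. These were *Itgb1bp1*, *Tln2*, *Col6a1*, *Itgb1*, *Col9a3* and *Itgb5*, and *Col9a3* held its place through control replicate 7, at 16.5 CPM per kb against 1.13 to 1.41 in the fear conditioned libraries. The lowest were *Col4a6* and *Col4a4*, chains of specialised basement membranes, with 0 reads in the fear conditioned libraries for *Col4a6* and 0, 0 and 2 for *Col4a4*, and with 36 and 43 in control replicate 6 and none in control replicate 7.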

How the data were processed

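Ribosome-bound polyA RNA was sequenced by the authors, 3 fear conditioned and 2 control libraries, with the SMARTer HV and NexteraXT kits and paired end reads. The methods name Tuxedo DESeq software, and the submitters' processing notes list DESeq and the build mm8. The aligner and the use of strand are not given in the sources used here. Each gene has a deposited, normalized signal in CPM (counts scaled to 1000000 of an effective library total). Dividing each library by its smallest nonzero value gave whole numbers (within 0.01) for 100% of values, and these were taken as recovered reads (19605318 to 27937520 per library).

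Groups were compared with limma 3.58.1 (lmFit, trended eBayes) on log2(value + 1). The two-sided test took the 13560 genes whose mean reached 1, and p-values were adjusted over all of them by Benjamini-Hochberg. Recovered reads were tested with edgeR 4.0.16 (quasi-likelihood, TMM) and DESeq2 1.42.0. The fits were also run on simulated counts, with large known changes in genes above a set level and the same spread in every library. The real controls spread more than the fear conditioned libraries, so that run does not measure how the fits do on these data. The 4 log2 ratios within libraries were compared by an exact permutation test over 10 splits, with a smallest p of 0.1. Alternatives were a pseudocount of 0.1, no filter, only genes reaching 1 in each library, quantile normalization, an adjusted p of 0.1, no fold cutoff and each library left out in turn. Counting *Col4a3bp* as a member was added after the data were seen.

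The members, lists and tests were chosen with earlier results of these data known. Genes named with values were the adaptors, the 3 members highest per kb in each role and both genes of each ratio. Also named were members with the 12 largest and 12 smallest fold changes at an unadjusted p under 0.05 without overlap. So were members with 3 reads or fewer in every library of 1 group. In each list of other matrix and adhesion genes, up to 2 genes per direction were named, those with the smallest unadjusted limma p under 0.05. Other members are given by value without being chosen. The values of 1 laminin chain and 2 marker genes are not reported here, though counts and sums include them. All 70 member identifiers matched the gene name table. Promoters, overlaps and neighbours come from RefSeq (GRCm38.p6), which is not the build named by the notes, so positions are given only for the promoters. Scripts ran in R 4.3.3 and Python 3.11.15 with pandas 2.3.3.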

Additional observations from a re-analysis of the deposited data

How the results depend on the processing

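No paired analysis was possible because the groups share no replicate numbers. With 3 against 2 pools, the control spread limits every test, and genes near the floor of 3 reads cannot be ranked. Members past both cutoffs numbered 0 under limma, edgeR, the other pseudocount, both filters, quantile normalization, an adjusted p of 0.1 and no fold cutoff, 10 under DESeq2, and 0 to 38 with 1 library left out. Members higher at an unadjusted p under 0.05 numbered 3 with a pseudocount of 0.1, 3 under DESeq2, 2 under edgeR, 2 after quantile normalization, 1 among genes reaching 1 in each library, and 1 to 19 with 1 library left out. Members lower numbered 19 after quantile normalization, 18 under DESeq2 and 5 to 30 with 1 library left out. Members higher without overlap numbered 5 after quantile normalization, 1 with at least 1 in every library, and 12 to 33 with 1 left out, and members lower without overlap 19 to 44 with 1 left out. The filter of at least 1 tests 27 members, which lowers its counts by construction. Leaving out a library can only keep or raise the counts without overlap, because fewer libraries are compared. For the other changes the cause was not tested. The counts over all genes moved as well. At an unadjusted p under 0.05, both directions together, they were 2280 in the main test, 2356 after quantile normalization, 2626 under DESeq2 and 2039 under edgeR. With 1 fear conditioned library left out they fell to 880 to 1060. Without 1 control, the count of all genes past both cutoffs rose as well, as given above. These swings were therefore not particular to the members. The median log2 fold change of members was -0.90 under DESeq2 and -0.86 to -0.27 with 1 library left out.

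The log2 ratio of *Parva* to *Parvb* was -0.054 with a pseudocount of 1 and -2.10 to 2.31 with 1 library left out, -2.10 being without control replicate 7. With 1 library left out, the differences ranged from -0.75 to 1.09 for *Col4a1* to *Col4a2*, from -0.32 to 0.91 for *Col6a1* to *Col6a2* and from -0.88 to 0.30 for *Tln1* to *Tln2*. Of the 62 tested members, those whose fold change turned sign under DESeq2 and edgeR were *Lims1* (-0.40 and -0.37), *Vcl* (-0.17 and -0.14), *Parvg* (-0.69 and -0.67) and *Itga3* (-0.29 and -0.26), and under DESeq2 *Tln2* (-0.017). After quantile normalization 5 turned, *Itga3*, *Itga7*, *Vcl* (-0.0055), *Parvg* (-0.35) and *Col27a1* (-0.14), and with a pseudocount of 0.1 *Col5a1*, *Col11a1*, *Col12a1*, *Col20a1*, *Col24a1* and *Lama1* did. Leaving out control replicate 7 and control replicate 6 gave -1.28 and 2.09 for *Lims1*, -0.92 and 1.73 for *Vcl*, -1.26 and 1.37 for *Parvg*, 0.094 and -0.65 for *Tln1* and -0.20 and 0.21 for *Tln2*, which were the ends of their ranges. With any 1 library left out, 15 of the 62 turned sign, these 5 and *Col4a1*, *Col9a2*, *Col11a1*, *Col12a1*, *Col19a1*, *Itga3*, *Itga7*, *Itga9*, *Itgbl1* and *Lamb1*. Of 345 values over the 33 members followed in full and 11 alternatives, 276 kept direction and side of the threshold, 51 moved past it and 18 turned sign. Counting *Col4a3bp* as a member changed none of the counts and gave a median of -0.47.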
